A study of Mus musculus with 16 samples.

Results

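The alpha chain of the T cell receptor is assembled from gene segments, and the RNA of those segments was followed here in sorted mouse CD4-positive T cells. The set was defined by symbol. It holds every gene whose GRCm38 symbol begins with Trav, Traj or Trac followed by a digit, a hyphen or the end of the name, which took 189 of the 49585 genes of the count table. Of these, 128 were variable segments (Trav), 60 joining segments (Traj) and 1 the constant segment (Trac). All lie on chromosome 14, between positions 52427928 and 54224206 of GRCm38, and 20 Trav and 9 Traj are annotated as pseudogenes. In all 16 libraries 28 segments had a count, and 8 had none in any library.

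During thymic development a V segment is joined to a J segment by the RAG recombinase, and the joined exon is then spliced to Trac. Each T cell therefore carries its own V and J pair, and the usage of segments in a population reflects the mix of its clones. The locus can rearrange repeatedly on one chromosome, moving to upstream V and downstream J segments. Alpha chains pair with beta chains and reach the cell surface with the CD3 chains. Invariant natural killer T (NKT) cells use Trav11 joined to Traj18, and mucosal-associated invariant T (MAIT) cells use Trav1 joined to Traj33.

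All cells came from mice with a BALB/c background that carry the Foxp3 IRES-GFP reporter, in which green fluorescence marks cells that express Foxp3, the lineage factor of regulatory T cells (Treg). The 4 groups of 4 libraries were Foxp3-negative conventional cells (CD4conv) of the non-pregnant uterus, Foxp3-positive Treg of the non-pregnant uterus, Treg of the pregnant uterus and Treg of the para-aortic lymph nodes of non-pregnant mice. Every sample was enriched for CD4 and sorted, and the titles call lymph node Treg CD25-positive and both uterine Treg groups CD25-negative. A non-pregnant library pooled 20 mice and a pregnant library between 3 and 8, so each library mixes the repertoires of several animals. The pregnant samples are placed at days 6 to 8 by their source labels, but 3 of their 4 titles end on a later day. CD4conv and pregnant uterine Treg were sequenced in batch 1, and the other groups in batch 2. Cell type (uterine Treg against CD4conv) and pregnancy (pregnant against non-pregnant uterine Treg) therefore cannot be told apart from batch. Tissue (uterine against lymph node Treg) and pregnant uterine Treg against CD4conv lie within a batch. By the titles, however, tissue cannot be told apart from CD25 status. Pregnancy also goes with smaller pools. In pregnant uterine Treg against CD4conv, cell type, pregnancy and pool size cannot be told apart.

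The segments that shaped the results are shown with their GENCODE M21 sequences, read 5′ to 3′ on the plus strand of GRCm38. The 5 joining segments with the highest mean share of Traj counts come first. Capitals mark the codons of the Phe-Gly-X-Gly motif, searched as TTTGGNNNNGG or TTCGGNNNNGG on both strands.
Traj18 (chr14:54200777-54200842): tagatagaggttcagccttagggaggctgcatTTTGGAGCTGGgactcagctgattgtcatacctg
Traj19 (chr14:54200386-54200446): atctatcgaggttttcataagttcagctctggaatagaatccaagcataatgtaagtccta
Traj20 (chr14:54199441-54199498): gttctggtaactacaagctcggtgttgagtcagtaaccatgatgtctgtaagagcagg
Traj27 (chr14:54192303-54192361): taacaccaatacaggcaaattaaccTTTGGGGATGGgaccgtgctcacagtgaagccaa
Traj21 (chr14:54198790-54198846): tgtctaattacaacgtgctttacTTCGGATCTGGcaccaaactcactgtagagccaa
These letters were present in Traj18, Traj21 and Traj27, and absent from Traj19 and Traj20, although neither of those is annotated as a pseudogene. Over all Traj, 43 of 60 (71.7%) held the motif, 42 of 51 segments not annotated as pseudogenes and 1 of 9 pseudogenes. None held it on the other strand.

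For the variable segments the last 60 bases of the transcript are shown. Capitals mark the Tyr-X-Cys codons, searched as TANNNNTGT or TANNNNTGC in the last 30 bases on both strands. Trav3-3 had the highest mean share and Trav14-1 led in 3 of 4 lymph node Treg libraries. The remaining pairs show how alike the copies of the locus are.
Trav3-3 (chr14:53665929-53666506): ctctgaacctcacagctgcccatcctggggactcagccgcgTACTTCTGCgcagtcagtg
Trav14-1 (chr14:53554022-53554558): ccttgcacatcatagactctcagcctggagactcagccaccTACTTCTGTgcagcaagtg
Trav7-4 (chr14:53461099-53461738): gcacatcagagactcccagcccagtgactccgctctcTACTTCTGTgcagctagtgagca
Trav7d-4 (chr14:52769753-52770392): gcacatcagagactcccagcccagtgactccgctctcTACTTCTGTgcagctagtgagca
Trav11 (chr14:53519303-53519859): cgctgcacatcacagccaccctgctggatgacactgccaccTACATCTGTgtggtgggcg
Trav11d (chr14:52824357-52824912): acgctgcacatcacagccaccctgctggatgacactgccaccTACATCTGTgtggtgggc
The letters were found in 123 of 128 Trav (96.1%), in 108 of 108 that are not pseudogenes and in 15 of 20 pseudogenes, and in none on the other strand. Trav7-4 and Trav7d-4 differed by 2 substitutions over 451 bases, C130T and A317C counted from the 5′ end of Trav7-4, and were identical in the stretch shown. Trav11 and Trav11d did not differ over 342 aligned bases.

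Libraries held between 1718558 and 15190212 counts, of which 794 to 12647 were alpha counts. The sorted identities were visible in Foxp3, at 0.503 to 3.26 CPM (the counts-per-million scale, counts over library total) in CD4conv and 192 to 814 CPM in pregnant uterine Treg. The 1427 olfactory and vomeronasal receptor genes, which T cells do not use, also took reads. Spread over all exonic bases, such reads would make up 8.69% to 53.6% of a library. The share was above 30% in 5 libraries, which were replicates 2 and 4 of pregnant uterine Treg, 3 and 5 of uterine Treg and 3 of lymph node Treg. It was highest in pregnant uterine Treg 4, where Trav segments other than pseudogenes had 11.5 counts per kilobase (kb) against 15.5 in the receptor genes. In the other 15 libraries that ratio was between 1.26 and 8.54. Trav pseudogenes took between 0.949% and 14.2% of Trav counts, the most in that same library. The CD4conv libraries also held markers of other cells. The 8 macrophage and dendritic cell markers summed to between 1685 and 19187 CPM there and to between 69.1 and 878 CPM in the Treg libraries. The 5 plasmacytoid dendritic cell markers summed to between 1399 and 3319 CPM in CD4conv and between 60.5 and 423 CPM in Treg, and the 5 NK cell markers to between 382 and 1763 CPM and between 19.1 and 80.9 CPM. The 2 CD8 T cell markers, Cd8a and Cd8b1, summed to between 139 and 350 CPM in CD4conv and between 6.02 and 38.6 CPM in Treg. CD8 T cells carry alpha chains themselves, but which cells these 2 markers came from was not tested. None of these markers was at 0 in all CD4conv libraries. The part of these reads and cells in the results below was not tested.

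Within the alpha total, Trac took 32.8% to 65.9% of the counts, Trav 19.4% to 50.2% and Traj 6.19% to 21.6%. These shares are of counts and not per length: Trac has 935 exonic bases, the median Trav 359 and the median Traj 61. Trac was lowest, and Trav highest, in pregnant uterine Treg 4. No single V or J segment exceeded 5.54% of the alpha total, the value of Traj18 in CD4conv 2. Shannon evenness over the 181 segments with any count (0 for a single segment, 1 for equal use) ranged between 0.402 and 0.554 in CD4conv, 0.408 and 0.566 in lymph node Treg, 0.397 and 0.593 in uterine Treg and 0.441 and 0.623 in pregnant uterine Treg. Because Trac dominates this total, V and J usage are given below as shares of the Trav and of the Traj counts. Whether these counts come from joined alpha chains or from other RNA of the locus was not tested.

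The constant segment Trac (chr14:54220521-54224206), the part shared by all alpha chains, was not called different between any groups. In CD4conv it stood at 388, 255, 144 and 383 CPM in replicates 1, 2, 3 and 5. The lymph node Treg libraries 1, 2, 3 and 5 had 537, 302, 259 and 392 CPM, and the uterine Treg libraries 572, 556, 375 and 167 CPM. Pregnant uterine Treg libraries 1 to 4 had 504, 300.1, 514 and 103 CPM. The ranges of all 4 groups overlapped, and the library with the lowest value was again pregnant uterine Treg 4. The log2 fold change was 0.02 (SE 0.69) for tissue and -0.08 (SE 0.69) for pregnancy, and against CD4conv it was 0.40 (SE 0.69) in non-pregnant and 0.33 (SE 0.69) in pregnant uterine Treg. Without pregnant uterine Treg 4 the pregnancy value was 0.29, and without uterine Treg 1 the tissue value was -0.17. The adjusted p of edgeR's quasi-likelihood test was between 0.999 and 1.00 in the 4 comparisons.

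Set against the CD3 chains, the order of the groups was different. For each count in Cd3d, Cd3e and Cd3g together, the signalling chains that carry the receptor to the surface, CD4conv libraries had 0.341, 0.302, 0.336 and 0.332 Trac counts. Lymph node Treg had 0.261, 0.203, 0.198 and 0.294, and uterine Treg had 0.242, 0.243, 0.293 and 0.225. In pregnancy the uterine Treg libraries had 0.249, 0.240, 0.273 and 0.188. All 4 CD4conv libraries thus lay above all 12 Treg libraries, the nearest being CD4conv 2 and lymph node Treg 5. This ratio was singled out after its values were seen, so it is given without a test. The marker sums of other cells given above, CD8 T cells among them, were also higher in every CD4conv library than in every Treg library. Their part in this ratio was not tested. The CD3 chains alone were not called: Cd3e, for instance, had a mean of 366 CPM in CD4conv and 792 CPM in uterine Treg (log2 fold change 1.03, SE 0.70, edgeR adjusted p = 0.999).

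**Figure D1:**
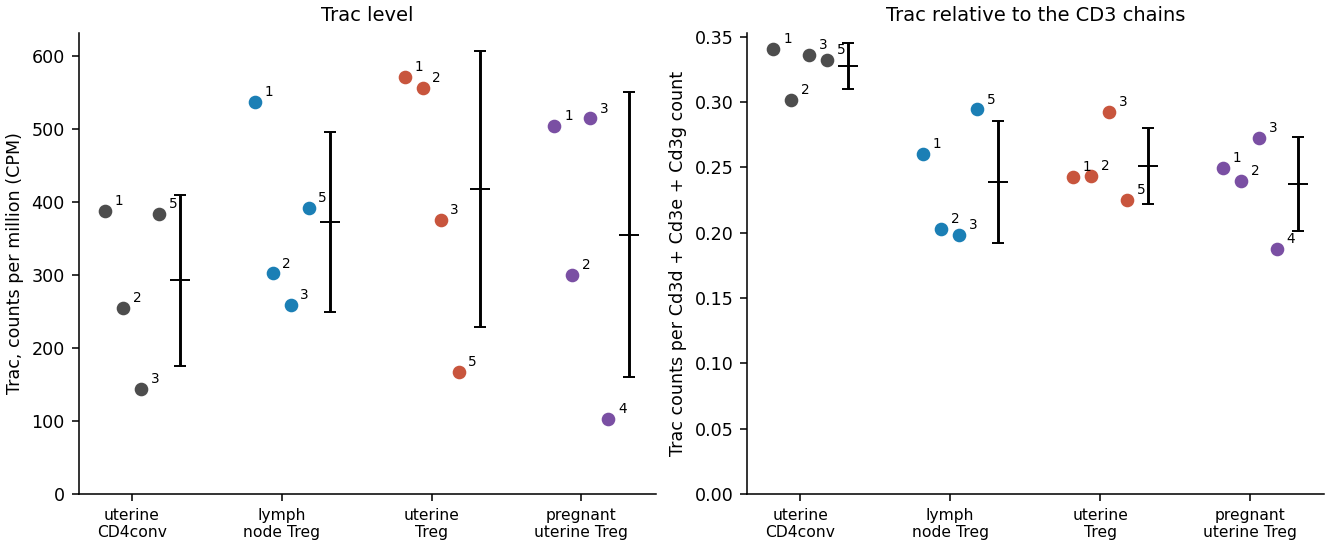
Trac in CPM (left) and per count of Cd3d, Cd3e and Cd3g together (right) in each library, by group; numbers are replicates and bars show mean ± SD (n = 4). The groups overlap on the left, whereas on the right the CD4conv libraries (0.302 to 0.341) lie above the 12 Treg libraries (0.188 to 0.294).

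The sum of all alpha segments behaved like its largest part. It was 513 ± 190 CPM in CD4conv, 647 ± 120 CPM in lymph node Treg, 712 ± 241 CPM in uterine Treg and 626 ± 248 CPM in pregnant uterine Treg (mean ± SD, n = 4 each). Its log2 difference was 0.08 for tissue and -0.21 for pregnancy, and from CD4conv it was 0.48 in non-pregnant and 0.27 in pregnant uterine Treg. Exact permutation tests (two-sided, 70 arrangements) gave p = 0.743, 0.600, 0.286 and 0.571, each 1.00 after adjustment over the family of 12 tests on level and evenness. Per CD3 count the log2 difference from CD4conv was -0.37 in uterine and -0.34 in pregnant uterine Treg (p = 0.0857 in each, exact permutation test, adjusted 0.343). With 4 libraries against 4 the smallest possible p is 0.0286, and 1 complete separation among 12 tests has an adjusted p of 0.343, so no single difference of this kind could pass 0.05. In bulk RNA, fewer cells of a type and less RNA per cell cannot be told apart.

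Segment by segment, 61 of the 189 had enough counts to be tested (48 Trav, 12 Traj and Trac). For tissue 0 of 61 were called in either direction, where 0% of the 30096 genes tested were called higher and 0% lower. For cell type 0 of 61 were called, against 0.0332% of all genes higher and 0.485% lower in uterine Treg. For pregnancy 0 of 61 were called, against 0% and 0% of all genes. For pregnant Treg against CD4conv 0 of 61 were called, against 0.0332% of all genes higher and 0.399% lower. The edgeR test also gave 0 of 61 segments an unadjusted p under 0.05 in every comparison, where the shares over all genes were 1.32% higher and 1.69% lower for tissue, 0.954% and 4.38% for cell type, 1.77% and 0.96% for pregnancy, and 1.09% and 3.7% for pregnant Treg against CD4conv. DESeq2, the other tool, called 0 segments after adjustment in each comparison. For tissue it had 82 segments to test and gave 1 an unadjusted p under 0.05 with a higher level and 0 with a lower level, where the shares over all genes were 3.16% and 2.06% unadjusted and 0.0339% and 0.0616% adjusted. For cell type it had 4 higher and 0 lower of 88, against 3.06% and 4.31% unadjusted and 0.117% and 0.849% adjusted. For pregnancy it had 2 higher and 0 lower of 152, against 2.7% and 2.66% unadjusted and 0.0166% and 0.0237% adjusted. For pregnant Treg and CD4conv it had 1 higher and 1 lower of 82, against 3.42% and 4.4% unadjusted and 0.132% and 0.825% adjusted. The 4 of 88 segments for cell type are 4.55%, the highest share of segments in these counts. When edgeR was fitted to the 6526 genes above 5 times the background, a choice made after seeing the data, 0 of 34 segments were called in each comparison and 0 had an unadjusted p under 0.05. The adjusted shares over all these genes, higher and lower, were 0.26% and 0.123% for tissue, 1.55% and 2.07% for cell type, 0% and 0% for pregnancy, and 2.02% and 2.47% for pregnant Treg and CD4conv. The unadjusted shares were 4.43% and 3.36%, 6.44% and 8.06%, 2.8% and 1.55%, and 9.38% and 9.07% in the same order. Replicates varied widely, with a biological coefficient of variation of 0.812 in the fit to 30096 genes.

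Most tested Trav segments had positive fold changes in the comparisons with CD4conv, none of them called. For cell type 36 of 48 were positive with a median log2 fold change of 0.49, where 47.8% of all tested genes were positive with a median of -0.05. For pregnant Treg against CD4conv 41 of 48 were positive with a median of 0.72, against 53.7% and 0.07 over all genes. The 12 Traj segments did not share this, with 4 positive (median -0.67) and 5 positive (median -0.12). Both comparisons use the same CD4conv libraries. In replicates 1, 2, 3 and 5 of CD4conv the Trav total was 181, 84.1, 97.7 and 220 CPM. The Traj total was 81.3, 93.6, 40.4 and 82.7 CPM in the same order. In tissue 19 of 48 Trav (median -0.08) and 7 of 12 Traj (median 0.14) were positive, against 46.9% of all genes. In pregnancy the counts were 22 of 48 (median -0.05) and 9 of 12 (median 0.18), against 56.5% of all genes.

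Trav usage was broad, and the leading segments differed between libraries of the same group. Between 64 and 96 Trav segments had a count in a library, and 6 to 16 segments together made up 50% of the Trav counts. Trav3-3 had the highest mean share over the 16 libraries (5.69%), and also the highest count per kb. It was the top V segment in all 4 CD4conv libraries, at 6.63%, 18.8%, 7.11% and 6.35%, and in no Treg library. In lymph node Treg it took 4.09%, 5.11%, 4.85% and 4.51%, in uterine Treg 2.52%, 6.31%, 4.74% and 3.33%, and in pregnant uterine Treg 4.23%, 3.49%, 6.32% and 2.67%. All CD4conv libraries therefore lay above all Treg libraries, the nearest being 6.35% and 6.32%. This order was noted after the shares were seen, and how many other segments separate the same libraries was not counted. The marker sums of other cells given above also separated these libraries, and their part in the Trav3-3 share was not tested. In CPM the segment was not called (cell type log2 -0.52, SE 0.74, edgeR adjusted p = 0.999).

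Trav14-1 led in lymph node Treg. It took 5.47%, 6.75%, 5.87% and 8.90% of Trav counts there, with 95% Wilson intervals from 4.39% to 6.81% in replicate 1 and from 7.16% to 11.01% in replicate 5, which cover counting error only. In uterine Treg Trav14-1 took 0%, 3.19%, 1.24% and 3.33%, so that the groups did not overlap. No test of this separation was planned, and how many other segments separate these libraries was not counted. The absence of Trav14-1 from uterine Treg 1 rests on 0 of 753 Trav counts, which allows a share of up to 0.398%. Pregnant uterine Treg had 5.63%, 2.29%, 2.64% and 0.356%, and CD4conv 3.25%, 0.484%, 1.54% and 2.20%. In CPM the mean was 15.0 ± 3.08 in lymph node Treg and 4.09 ± 3.62 in uterine Treg (SD, n = 4), a log2 fold change of -1.87 (SE 1.04) with an edgeR adjusted p of 1.00. This segment has no 150-base window in common with another Trav.

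In the uterine Treg libraries 3 different V segments led. Trav7-4 took 12.9% of Trav counts in replicate 1 (95% Wilson interval 10.7% to 15.5%), and 6.65%, 3.92% and 2.42% in the other replicates. Its near copy Trav7d-4 took 5.84%, 5.57%, 2.06% and 1.21% in the same libraries, the same order of replicates. Trav17 led in replicate 2 with 7.06%, beside 4.12%, 1.86% and 1.21% in the rest. Trav5-1 led in replicates 3 and 5 with 8.66% and 10.3%, but took 3.98% and 1.09% in replicates 1 and 2. Lymph node Treg libraries were closer together, with Trav5-1 between 1.78% and 2.66% and Trav7-4 between 3.83% and 4.70%.

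In pregnant uterine Treg each library had its own leading V segment. These were Trav14-1 in replicate 1 (5.63%), Trav3-4 in replicate 2 (5.54%), Trav8d-2 in replicate 3 (8.91%) and Trav6d-4 in replicate 4 (9.07%). Trav8d-2 took 2.43%, 1.20% and 0% in the other pregnant libraries, the 0 allowing up to 0.534%. Trav6d-4 took 2.00%, 4.22% and 0.947%. No library of another group had more than 3.68% of Trav6d-4 or 3.45% of Trav8d-2.

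Of the other V segments with high mean shares, Trav14d-3-dv8, which can also serve the delta chain, took 4.53% to 6.38% in CD4conv, 4.59% to 7.23% in lymph node Treg, 0.606% to 5.43% in uterine Treg and 0.178% to 6.94% in pregnant uterine Treg. Trav8d-1 ranged between 0.193% and 5.84%, and Trav12-3 between 1.95% and 6.64% over the 16 libraries. The 10 segments of both chains (dv in the symbol) together took 2.67% to 15.1% of Trav counts, lowest in pregnant uterine Treg 4. Segments of the d copy of the locus took 16.4% to 34.6%, and those of the n copy 5.66% to 11.4%. The copies are those of GRCm38, and how the locus of the BALB/c background differs from it was not tested.

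**Figure D2:**
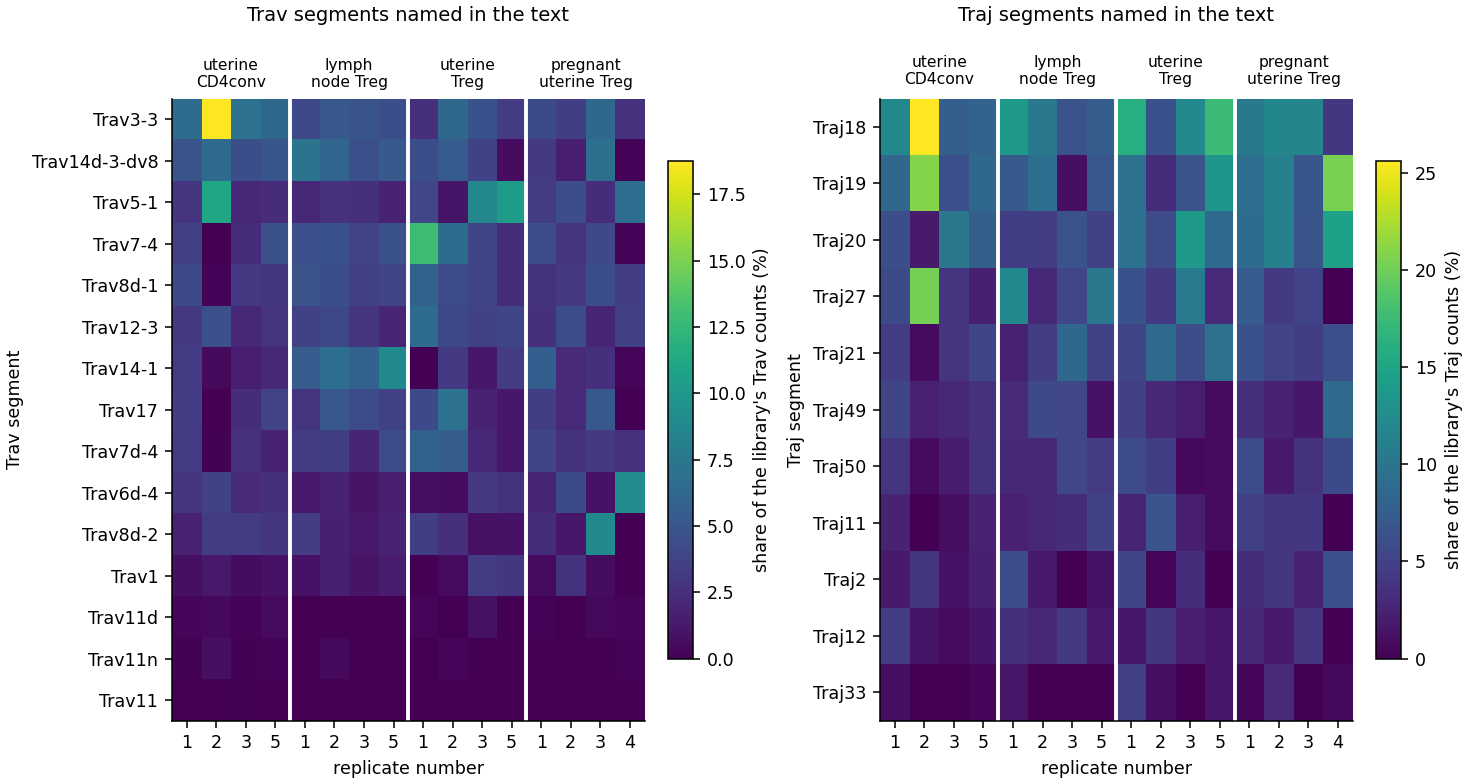
Share of each library's Trav counts (left) or Traj counts (right) in the named segments, with rows ordered by mean share, columns grouped by sample group and the color scale in percent. CD4conv 2 stands out in Trav3-3 (18.8%), Traj18, Traj19 and Traj27, and Trav14-1 is brighter in the lymph node Treg libraries (5.47% to 8.90%) than in uterine Treg (0% to 3.33%).

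CD4conv 2 stood apart from the other libraries of its group in the mix of segments. Trav3-3 (18.8%, 95% Wilson interval 16.5% to 21.3%) and Trav5-1 (11.03%, interval 9.26% to 13.1%) together with a single further segment made up 36.2% of its Trav counts, whereas the top 3 took 15.7% to 17.2% in CD4conv 1, 3 and 5. At the same time 8 of the 31 Trav segments with at least 10 counts in each of those 3 libraries had none in replicate 2. They were Trav2, Trav4-2, Trav6-1, Trav7-1, Trav7-4, Trav17, Trav21-dv12 and Trav22, with 49 to 162 counts in the other 3 libraries together. With 1034 Trav counts in the library, a count of 0 allows up to 0.290%. Traj18 (25.6%), Traj19 (20.9%) and Traj27 (20.2%) made up 66.7% of its Traj counts. This library had the highest number of total counts of its group, 12302043, but the lowest Trav level of the 16 libraries, 84.1 CPM, and its 1034 Trav counts compare with 1660, 971 and 1685 in CD4conv 1, 3 and 5. The part of Trav depth in the segments at 0 was not tested.

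The similarity of V usage between libraries was described by the Morisita-Horn index, which is 0 for no segment in common and 1 for equal shares. Among the 6 pairs of lymph node Treg libraries it was between 0.858 and 0.946, with a median of 0.907. The median was 0.753 among CD4conv, 0.657 among uterine Treg and 0.621 among pregnant uterine Treg libraries. The lowest pair of lymph node Treg was above the highest pair of uterine Treg (0.803) and of pregnant uterine Treg (0.795). Libraries of different groups were alike as well, and the 16 pairs of lymph node Treg and CD4conv had a median of 0.826. Pairs share libraries, and libraries with few counts give lower values by sampling, so these values carry no test. For Traj the medians within groups were close, between 0.749 and 0.796.

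V evenness, on 330 counts drawn from each library and with 120 segments in the denominator, passed the threshold in no test between groups. It was 0.821, 0.663, 0.812 and 0.824 in CD4conv and 0.802, 0.803, 0.817 and 0.797 in lymph node Treg. Uterine Treg had 0.703, 0.767, 0.801 and 0.798, and pregnant uterine Treg 0.799, 0.813, 0.771 and 0.723. Lymph node Treg libraries lay close together, while every other group had 1 library under 0.73. The tissue difference was -0.0377 (uterine 0.767 ± 0.0454, lymph node 0.805 ± 0.00860, SD, n = 4), with p = 0.0857 in the exact permutation test and 0.514 after adjustment. The pregnancy difference was 0.00915, and those of non-pregnant and pregnant uterine Treg from CD4conv were -0.0127 and -0.00353, with exact permutation p of 0.686, 0.714 and 0.914. Without uterine Treg 1 the tissue difference shrank to -0.0163. With background subtracted and no thinning, a setting chosen after seeing the data, uterine Treg had 0.669, 0.756, 0.695 and 0.684. Lymph node Treg then had 0.793, 0.729, 0.736 and 0.763, and the ranges overlapped.

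J evenness, on 92 counts per library and 60 segments, showed more spread. CD4conv had 0.789, 0.530, 0.804 and 0.804, and lymph node Treg 0.759, 0.804, 0.83 and 0.808. Uterine Treg had 0.692, 0.776, 0.737 and 0.714 without pregnancy and 0.745, 0.736, 0.781 and 0.643 with it. The uterine minus lymph node difference was -0.0704 (0.730 ± 0.0361 against 0.8001 ± 0.0295, SD, n = 4), with an overlap between uterine Treg 2 and lymph node Treg 1. The exact permutation p was 0.0571, and 0.514 after adjustment. The differences were -0.00202 for cell type and -0.00326 for pregnancy, and pregnant uterine Treg differed from CD4conv by -0.0053, all smaller than the SD within the groups.

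Replicate 2 lowered both measures in CD4conv, and its omission was singled out after these values were seen. When this library was left out, the other 3 CD4conv libraries lay above all 4 uterine Treg libraries, with a difference of -0.0518 in V evenness and -0.0692 in J evenness. Each had p = 0.0571 in the exact permutation test, the smallest that 3 against 4 can give, and 0.343 after adjustment. Against pregnant uterine Treg the differences became -0.0427 (exact permutation p = 0.114) and -0.0725 (exact permutation p = 0.0571). Without the 5 libraries of highest background, but with CD4conv 2, the J difference for cell type was 0.00222. Over all 4 groups, exact permutation tests with 2627625 arrangements gave p = 0.624 for the alpha total, 0.765 for V evenness and 0.512 for J evenness, each 0.765 after adjustment over these 3.

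**Figure D3:**
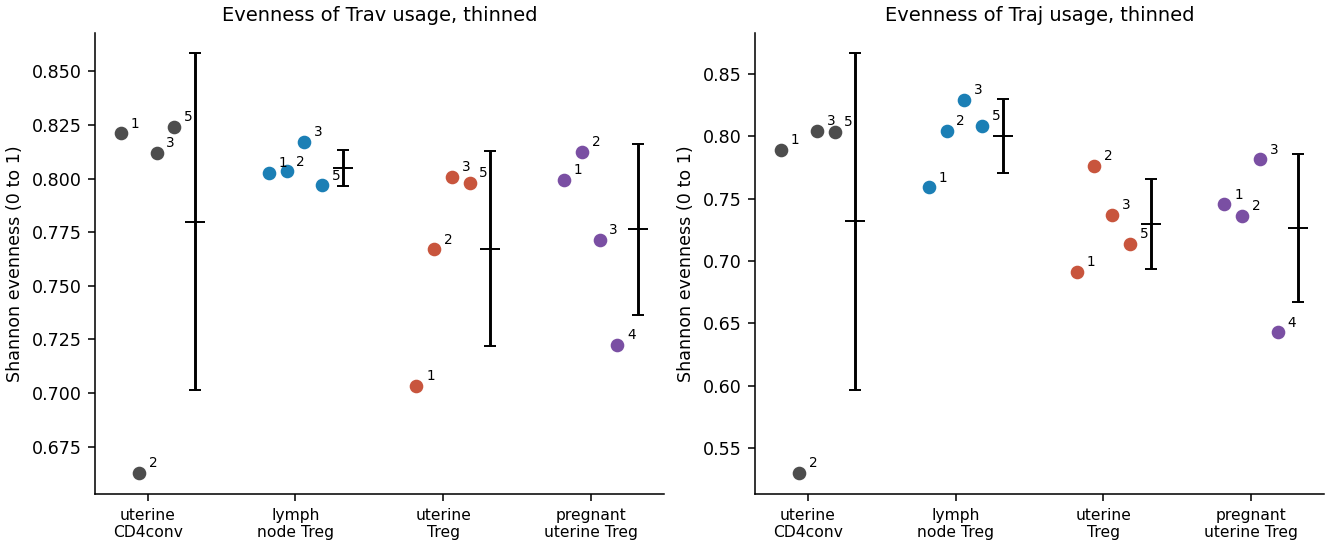
Shannon evenness of Trav usage (left, 330 counts per library) and Traj usage (right, 92 counts per library); numbers are replicates and bars show mean ± SD (n = 4), and the axes do not start at 0. CD4conv 2 lies lowest in both panels (0.663 and 0.530), and lymph node Treg has the narrowest spread in V evenness.

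Traj counts gathered in a short stretch of the cluster in every library. The neighbours Traj18, Traj19, Traj20 and Traj21 together took between 28.1% and 49.1% of Traj counts in CD4conv, 22.8% and 29.0% in lymph node Treg, 24.7% and 49.2% in uterine Treg and 29.9% and 45.5% in pregnant uterine Treg. Traj18 had the highest mean share (11.4%), followed by Traj19 (9.35%), Traj20 (7.91%), Traj27 (6.51%) and Traj21 (5.51%). This order is the same in counts per kb for the first 2. The third of the cluster next to Trac, 20 segments, took 50.0% to 55.1% of Traj counts in lymph node Treg and 58.8% to 67.5% in uterine Treg, 2 ranges that do not overlap. It took 57.0% to 69.1% in pregnant uterine Treg and 45.8% to 63.1% in CD4conv. These sums were not tested, and how many other stretches of the cluster separate the same libraries was not counted. Traj19 and Traj20 lack the Phe-Gly-X-Gly letters shown above. Traj pseudogenes took between 2.69% (CD4conv 2) and 13.2% (CD4conv 5) of Traj counts. How far the Traj counts reflect joined alpha chains was not tested.

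Among single joining segments Traj18 took 11.96%, 25.6%, 7.71% and 8.19% in CD4conv and 13.8%, 10.3%, 6.52% and 7.59% in lymph node Treg. It took 16.1%, 6.47%, 12.1% and 17.5% in uterine Treg and 10.4%, 11.8%, 11.6% and 4.19% in pregnant uterine Treg. The groups overlapped, and no library of any group was without it. Traj19 reached 20.4% in pregnant uterine Treg 4 (95% Wilson interval 15.3% to 26.7%) and 20.9% in CD4conv 2, against 9.26%, 11.1% and 6.89% in the other pregnant libraries. Traj27 took 20.2% in CD4conv 2 and 12.2% in lymph node Treg 1, and 0% in pregnant uterine Treg 4, where 191 Traj counts allow up to 1.57%. Traj20 ranged between 1.82% and 14.7%, and Traj21 between 0.782% and 9.52%. For cell type Traj19 had a log2 fold change of -1.31 (SE 0.85, edgeR adjusted p = 0.999).

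**Figure D4:**
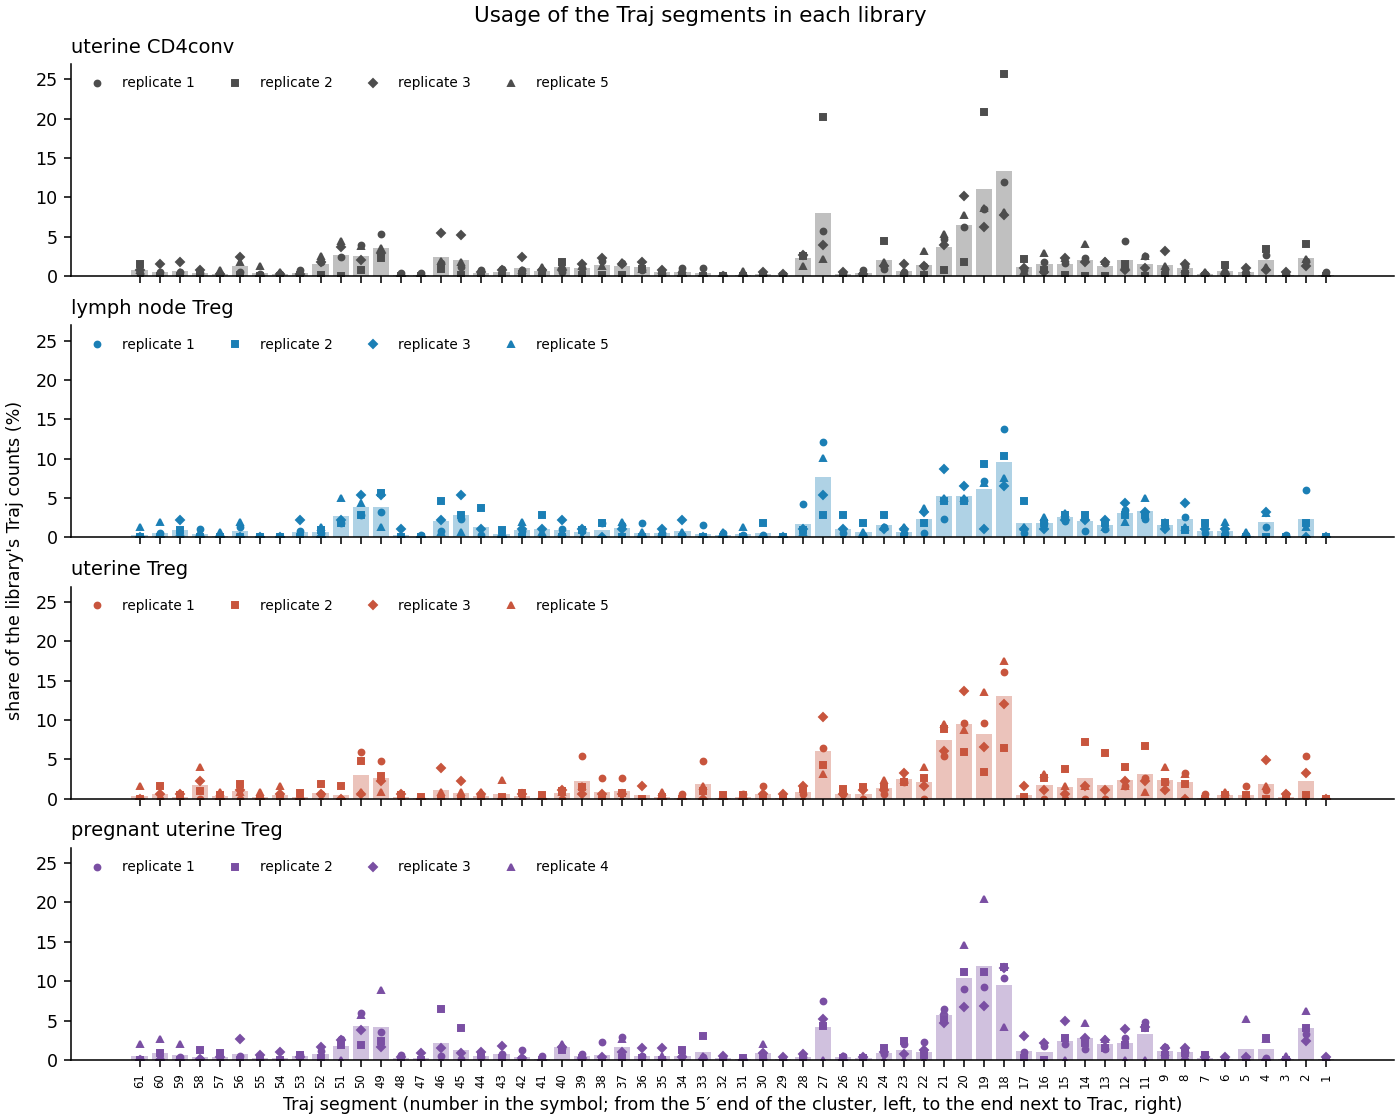
Share of Traj counts in each of the 60 joining segments, ordered from the 5′ end of the cluster to the end next to Trac; bars are group means and symbols single libraries. Traj18 to Traj21 and Traj27 stand above their neighbours in all 4 groups, and the highest single values, 25.6%, 20.9% and 20.2%, belong to CD4conv 2.

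The segments of invariant receptors had few counts on the V side. Trav11, Trav11d and Trav11n together had between 4 and 12 counts in CD4conv libraries, 0 and 2 in lymph node Treg, 0 and 5 in uterine Treg and 0 and 16 in pregnant uterine Treg. As a share of Trav counts this was at most 1.16%, in CD4conv 2, whereas Traj18, the partner of Trav11 in NKT cells, took 25.6% of Traj counts there. Over the series 52 of these counts were assigned to Trav11d and 2 to Trav11, which have the same sequence over 342 bases. Trav1 ranged between 0% and 3.30% of Trav counts and Traj33 between 0% and 4.84% of Traj counts. The highest values of Trav1 were in uterine Treg 3 (3.30%) and those of Traj33 in uterine Treg 1 (4.84%), where Trav1 had 0 of 753 counts.

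How well a V segment can be counted depends on its copies. Cut into windows of 150 bases, the read length, 38 Trav had no window of their own, 40 had some windows in common with others and 50 had only unique windows. Median counts over the 16 libraries were 13.5, 69.5 and 189 in these sets, and 43.1, 180.2 and 503 per kb. Spearman's rho between the share of unique windows and the counts was 0.511 over the 128 segments, which share libraries and sequence. Of the n copies 17 of 34 had no unique window, of the d copies 19 of 39 and of the segments without a copy letter 2 of 55. Whether reads that match several segments were counted is not given in the sources used here, so low counts of the copies are uncertain. The windows come from GRCm38 sequences, and differences of the BALB/c background from these were not tested. Trav3-3, Trav5-1, Trav12-3, Trav14-1, Trav17 and Trav6d-4 had only unique windows.

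**Figure D5:**
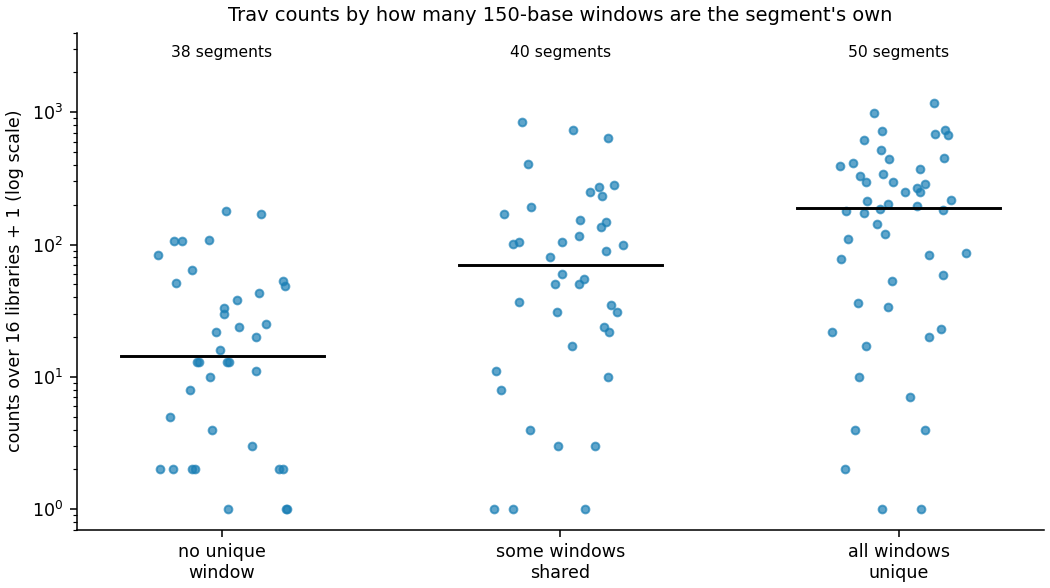
Counts over all 16 libraries plus 1, on a log axis, for each of the 128 Trav segments, by whether none, some or all of its 150-base windows are its own; lines mark medians. The medians rise from 13.5 over 69.5 to 189 counts before 1 is added.

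Other genes of the receptor and its assembly were described for context. None of the 10 genes of the receptor complex (Cd3d, Cd3e, Cd3g, Cd247, Trbc1, Trbc2, Cd4, Lck, Zap70 and Lat) was called in any comparison. Of the 4 genes of recombination and the pre-receptor, Ptcra had too few counts to test and Rag1 and Rag2, the recombinase, were not called. Dntt, the polymerase that adds bases at the joints, was lower in uterine Treg (8.57 ± 8.83 CPM) than in CD4conv (64.3 ± 20.8 CPM, SD, n = 4), a log2 fold change of -3.60 (SE 0.85, edgeR adjusted p = 0.0497). In pregnant uterine Treg it was lower by a log2 fold change of -3.92 (SE 0.85, edgeR adjusted p = 0.0279). The markers of plasmacytoid dendritic cells given above were high in the same CD4conv libraries, and their part in the Dntt difference was not tested. Cd8b1, a chain of the CD8 coreceptor, was also lower in uterine Treg, at 16.6 ± 7.48 CPM against 250 ± 87.7 CPM (SD, n = 4), a log2 fold change of -4.33 (SE 0.61, edgeR adjusted p = 0.000463). Which cells of the CD4conv libraries carried Cd8b1 was not tested. The constant segments of the gamma and delta chains, Tcrg-C1, Tcrg-C2, Tcrg-C4 and Trdc, were not called in any comparison.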

How the data were processed

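RNA of the 16 libraries was amplified with SMART-Seq v4, tagmented with Nextera XT and read in pairs of 150 bases, per the labels' protocols. The authors deposited raw counts, whole numbers per gene. Trimmomatic, HISAT2, SAMtools, featureCounts and DESeq2, with build GRCm38, are named in the submitters' processing notes. For their versions and settings, including reads that match several segments or span V, J and C segments, the sources used here give nothing. The kits do not mark strand.

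Symbols, exonic lengths and sequences came from GENCODE M21, which named 49326 of the 49585 genes. Counts were tested with edgeR 4.0.16 (quasi-likelihood, TMM, filterByExpr, all 16 libraries, 12 residual degrees of freedom, R 4.3.3) with Benjamini-Hochberg adjustment at 0.05, and with DESeq2 1.42.0 as an alternative. SE is the absolute log2 fold change over the square root of F. Alpha total and evenness were compared by exact permutation over libraries (scipy 1.17.1), evenness after thinning to equal counts (mean of 100 draws). Background per exonic base came from 1427 receptor genes. Copies were aligned pairwise, and J and V motifs searched by letters. The edgeR fit and the thinned evenness were checked on simulated data, whereas the permutation tests and DESeq2 were not.

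Segments named are Trac, the 10 Trav and 10 Traj of highest mean share, the 5 of each of highest share in any library, any segment called, and the invariant segments; the other receptor genes were listed too. Trav3-4 and the 8 segments at 0 in CD4conv 2 were named after their values were seen. Members and lists were chosen with earlier results of these data known. Trgc1, Trgc2 and Trgc4 appear in the annotation as Tcrg-C1, Tcrg-C2 and Tcrg-C4. Replicates are pools of mice, and p-values measure the spread between pools. Alternatives covered scaling, filters, tool, samples in the fit, replicate block, libraries left out, depth, pseudogenes, index, subgroups and background.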

Additional observations from a re-analysis of the deposited data

Results flagged for a closer look

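In each group of 4 libraries, the highest or lowest library was compared with the rest by its gap to the nearest, as a share of the whole range. Of 140 such groups over the measures and named segments, 16 had a library standing far off. Chance alone marks about 1 in 20 groups of continuous values, but this rate does not hold for sparse segments, where 3 libraries at 0 and 1 above it always meet the criterion, so the 16 cannot be set against it. Of the 16, 4 were of this kind: Trav11n in the 3 Treg groups and Traj33 in lymph node Treg. CD4conv 2 accounted for 6 of them. The V evenness of CD4conv 2 was 0.663 and its J evenness 0.530, both low. Trav3-3 (18.8% of Trav counts), Trav5-1 (11.03%), Trav11n (0.774%) and Traj19 (20.9% of Traj counts) were high. Trav3-3, Trav5-1 and Traj19 were named partly for their high share in this same library, so their marks are not independent of that choice.

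Pregnant uterine Treg 4 accounted for 3. It had 153 Trav counts per 100 Trac counts and 0.178% Trav11n, the latter from 1 count of 562, and 0% Traj11, which was low. Uterine Treg 5 also had a high ratio, with 97.6 Trav counts per 100 Trac counts. Both are among the libraries of highest background (53.6% and 34.9% of the library), whose part in these values was not tested.

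The other libraries had 1 value each. Trav11n was at 0.409% in lymph node Treg 2 and 0.272% in uterine Treg 2, from 2 and 4 counts. Trav12-3 was high in uterine Treg 1 (6.64%), and Trav7-4 was low in lymph node Treg 3 (3.83%). Traj33 was at 1.59% in lymph node Treg 1 and 3.10% in pregnant uterine Treg 2, from 6 and 10 counts.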

How the results depend on the processing

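No alternative moved a result past its threshold, and the lowest adjusted p over all of them was 0.0986, for the alpha total per CD3 count over the 4 groups. For alpha total and evenness between any pair of groups, no alternative could have done so. The smallest p of the exact permutation test, 0.0286, has an adjusted p of 0.343 among 12 tests, and leaving out a library raises it. Not passing there therefore does not show that these results are stable. Under settings other than a left-out library, 110 values did not change sign and 16 did, all of results that pass no test. The 110 include the counts of called segments, which stayed at 0, and the shares of variance between the 4 groups. Neither of these can change sign. Per CD3 count the alpha total (log2) became -0.37 for cell type, 0.0299 for pregnancy and -0.34 for pregnant Treg and CD4conv, and with TMM scaling it became -0.0621 for tissue. J evenness became 0.00193 for cell type without pseudogenes, and for pregnancy 0.0136 without thinning, 0.222 as inverse Simpson index and 0.00459 with background subtracted. Without the 5 libraries of highest background, chosen after seeing the data, V evenness became 0.00532 for pregnant Treg and CD4conv, and J evenness 0.00222 for cell type, 0.0295 for pregnancy and 0.0317 for pregnant Treg and CD4conv. The limits to genes above background, the subtraction of background and the CD3 ratio over 4 groups were also chosen after seeing the data. The cause of these changes was not tested. V evenness separated uterine from lymph node Treg without thinning (-0.0395, exact permutation p = 0.0286, adjusted 0.343).

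Same-numbered libraries of different groups had correlations of their deviations from the group means between -0.39 and 0.41. These values cannot show whether same-numbered pools came from the same mice. With the replicate number as a block, Trac in pregnancy became 0.36 (log2), V evenness for pregnant Treg and CD4conv 0.0292, and J evenness 0.0194 for pregnancy and 0.0466 for pregnant Treg and CD4conv. No call changed under the block. Alpha total and evenness could not pass there either, because the paired exact permutation test has a smallest p of 0.125 with 4 pairs and 0.25 with 3.

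With each library left out in turn, 0 segments were called in every comparison, and 33 values changed sign while 127 did not. The 127 include these counts of called segments, 8 in each comparison, which cannot change sign. Trac (log2) ran from -0.39 (without uterine Treg 2) to 0.59 (without lymph node Treg 1) for tissue, from -0.00957 to 0.70 for cell type, from -0.48 to 0.33 for pregnancy and from -0.0880 to 0.68 for pregnant Treg and CD4conv. The alpha total (log2) ran from -0.0584 to 0.34, 0.23 to 0.75, -0.47 to 0.0845 and 0.01 to 0.57 in the same order. V evenness ran from -0.0489 to -0.0163, -0.0518 to 0.00869, -0.0122 to 0.0271 and -0.0427 to 0.0144. J evenness ran from -0.0859 to -0.0577, -0.0692 to 0.0221, -0.0216 to 0.0246 and -0.0725 to 0.0226. The lowest evenness values against CD4conv came without CD4conv 2. Thinning to 330 Trav and 92 Traj counts, set by the shallowest libraries, limits what evenness can show.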
